A study of Sus scrofa with 13 samples.

Results

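Bile acid synthesis and transport was followed in pig liver through 10 genes, picked by symbol from the 35670 genes of the count table. They were CYP7A1, CYP7B1 and CYP8B1 for synthesis, NR1H4 and NR0B2 for regulation, SLC10A1 for uptake, ABCB11 and ABCC2 for export into bile, and ABCC3 and SLC51B for export back into blood. Each symbol had 1 row, and all 10 genes passed the filter on low counts. The livers came from female Yorkshire pigs, which received glucose water in place of food before surgery. At baseline, 2 liver biopsies were taken with no ischemia, no reperfusion and no cells. The other 11 biopsies came from livers after 45 min of total vascular exclusion and 6 h of reperfusion. Of these, 3 ischemic controls received no cells, 4 received human bone marrow-derived mesenchymal stromal cells (BM-MSCs) through the hepatic artery and 4 received them through the portal vein, at 3000000 cells per kg in both groups. All pigs were anesthetized and opened by laparotomy. None of the libraries came from an unclamped liver at 6 h, so clamping and the hours under surgery cannot be told apart. The labels do not say which pigs gave the baseline biopsies. By the methods, livers were sampled before clamping and again after 6 h of reperfusion. A baseline biopsy may therefore come from the same pig as a library at 6 h, and no test paired libraries by pig.

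Bile acids are made from cholesterol in hepatocytes, by a classic pathway that starts with CYP7A1 and an alternative pathway in which CYP7B1 acts. CYP8B1 acts on the branch to cholic acid, and no bile acid levels are given here. The bile acid receptor FXR, encoded by NR1H4, induces the repressor SHP, encoded by NR0B2, which lowers CYP7A1 and CYP8B1 transcription. Hepatocytes take bile acids up from portal blood with NTCP (SLC10A1), secrete them into the bile canaliculus with BSEP (ABCB11) and MRP2 (ABCC2), and return them to blood with MRP3 (ABCC3) and the transporter OSTα/OSTβ, whose β subunit is SLC51B.

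The 13 libraries held between 18975413 and 35949178 counts, with 13581 to 20282 genes detected. Levels are given as CPM, the counts of a gene scaled to 1000000 counts per library after TMM normalization, and are compared between libraries and not between genes, since gene lengths were not used. The 4 groups entered 1 edgeR fit, and 16481 genes were tested with Benjamini-Hochberg adjustment. On the first principal component, which held 64.1% of the variance of 500 genes, arterial 1, control 2, portal 1 and portal 4 stood apart at 28.9 to 61.0, against -29.6 to -4.8 for the other 9 libraries. Control 2, portal 1 and portal 4 were also the 3 shallowest libraries. The hepatocyte markers ALB, TTR, APOA1, APOC3, SERPINC1, TF, FGB and AHSG were detected in every library, with a summed level of 86726 to 151131 CPM at baseline and 63968 to 139299 CPM at 6 h. In such bulk tissue, fewer hepatocytes and less RNA per hepatocyte cannot be told apart.

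The first question was what ischemia and reperfusion did to these genes. CYP7A1 was lower in all 11 livers at 6 h than in both baseline livers, by 12.2-fold on average, and ABCB11 was also lower in all 11. ABCC3 and CYP8B1 were below both baseline livers in 10 of 11. The bile salt importer SLC10A1 was below both baseline livers in 9 of 11 livers and above both in 2, and CYP7B1, ABCC2 and NR0B2 lay on both sides of their baseline levels. By edgeR's quasi-likelihood test none of the 10 genes passed an adjusted p of 0.05 in this comparison, and none of the 16481 genes did. At an unadjusted p under 0.05 the count was 3 of the 10 genes, all lower, against 4.78% of all genes tested and 1.93% that were lower. Livers at 6 h below both baseline livers without overlap were found for 2 of the 10 genes, against 3.8% of all genes. DESeq2 over the same libraries called 16 genes, none of them among the 10.

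CYP7A1, the rate-limiting enzyme of the classic pathway (ENSSSCG00000006238, Sscrofa11.1 chromosome 4, 74343101 to 74372628), was at 10.2 and 33.6 CPM in the baseline livers. In the ischemic controls it was at 0.151, 0.731 and 4.52 CPM. After arterial infusion the 4 livers were at 0.382, 3.75, 6.06 and 1.29 CPM, and after portal infusion at 0, 1.82, 1.92 and 0.596 CPM. The highest liver at 6 h, arterial 3, was therefore below the lower baseline liver, while the 3 groups at 6 h overlapped. Portal 1 had 0 CYP7A1 reads, which allows up to 0.125 CPM, and control 1 had 5 reads. The mean was 21.9 ± 16.6 CPM (SD, n = 2) at baseline, 1.80 ± 2.38 CPM (n = 3) in controls, 2.87 ± 2.56 CPM (n = 4) after arterial and 1.09 ± 0.942 CPM (n = 4) after portal infusion.

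Across all livers at 6 h, the log2 fold change of CYP7A1 against baseline was -3.61 with a standard error of 0.97 and a 95% interval from -5.69 to -1.54. Its unadjusted p of 0.00215 ranked 18 among 16481 genes, and its adjusted p was 0.860 by edgeR's quasi-likelihood test. The paper already named CYP7A1 among the genes downregulated after ischemia and reperfusion in this series. The rank and p-values of CYP7A1 are therefore not independent evidence. The two-sided exact permutation test gave p = 0.0128, the smallest that 11 against 2 livers allow, and 0.0833 when a baseline library was left out, the smallest that 11 against 1 allow. The size of the difference depended on baseline 2, without which the log2 fold change was -2.51, and on control 3, without which it was -4.29. CYP7A1 was the 1 gene of the 10 with an unadjusted p under 0.05 (0.0151, adjusted p 1.00) in the test of any difference among the 4 groups, where 2.39% of all genes had one. That p rested on baseline 2, without which it was 0.280, and it was 0.00501 without control 3.

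CYP8B1, the sterol 12α-hydroxylase (ENSSSCG00000054436, chromosome 13, 26330233 to 26331738), was at 3.10 and 5.68 CPM at baseline. The ischemic controls were at 1.39, 0.609 and 1.57 CPM. The arterial group was at 0.509, 2.62, 3.61 and 0.568 CPM and the portal group at 1.63, 0.700, 2.72 and 0 CPM. All livers at 6 h except arterial 3 were thus below both baseline livers. The 0 in portal 4 allows up to 0.128 CPM. Across all livers at 6 h its log2 fold change was -1.64 with a standard error of 0.99 (unadjusted p 0.118), and the exact permutation test gave p = 0.0769, with 0.0152 when arterial 3 and 0.25 when baseline 2 was left out. Neither test of CYP8B1 over all livers at 6 h passed its threshold.

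CYP7B1, the oxysterol 7α-hydroxylase of the alternative pathway (ENSSSCG00000022092), showed no such separation. Its baseline levels were 3.48 and 4.72 CPM, and its levels at 6 h ran from 1.86 CPM in portal 2 to 6.36 CPM in arterial 4 with a median of 3.73 CPM. Controls were at 4.62, 2.13 and 4.52 CPM. Against baseline its log2 fold change was -0.18 with a 95% interval from -1.30 to 0.95, so a difference of about the size seen for CYP7A1 lay outside the interval while a smaller one did not.

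**Figure D1:**
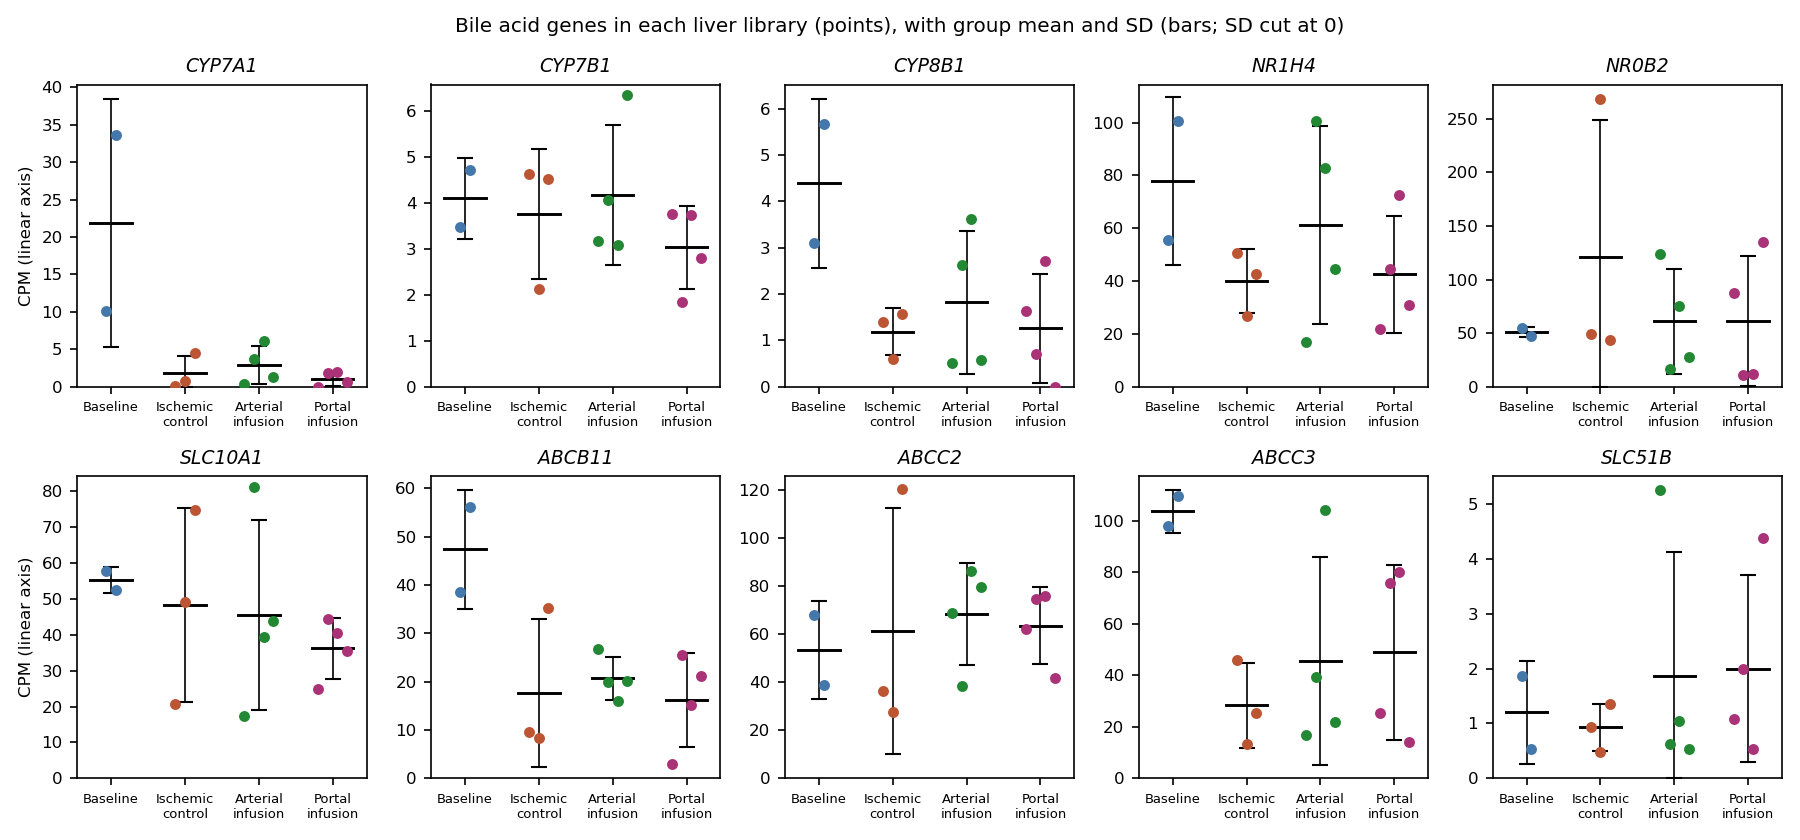
CPM on a linear axis (y) of the 10 bile acid genes in each liver library (points) by group (x), with the group mean (thick bar) and SD (thin bars, cut at 0). For CYP7A1 the baseline points at 10.2 and 33.6 CPM lie above all points at 6 h, the highest of which is at 6.06 CPM.

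Among the regulators, NR1H4 encodes FXR, the nuclear receptor that senses bile acids (ENSSSCG00000000875, chromosome 5, 83607222 to 83732668). Its level was 55.5 and 100.5 CPM at baseline and 50.7, 26.9 and 42.5 CPM in the ischemic controls. The arterial livers were at 16.9, 100.6, 82.8 and 44.7 CPM and the portal livers at 22.0, 44.7, 72.7 and 31.1 CPM. The 3 controls were below both baseline livers, but arterial 2 reached the upper baseline value. Over the 11 livers at 6 h the log2 fold change of NR1H4 was -0.73 with a standard error of 0.52 (unadjusted p 0.184).

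NR0B2 encodes SHP, the repressor that FXR induces (ENSSSCG00000003565, chromosome 6, 84225670 to 84228156). The baseline livers were close together at 54.5 and 47.6 CPM. Controls were at 49.5, 268.6 and 43.9 CPM, arterial livers at 123.8, 16.5, 75.6 and 27.9 CPM, and portal livers at 87.9, 10.6, 12.2 and 135.2 CPM. Thus 5 of 11 livers at 6 h lay above both baseline livers and 5 lay below both, over a 25.4-fold range. Its log2 fold change was 0.59 with a 95% interval from -1.45 to 2.63. Without the 4 libraries apart on the first component it was -0.89, so the direction rested on those libraries.

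NR0B2 and NR1H4 tended to go in opposite directions from liver to liver. Pearson's r between their log2(CPM + 0.5) values was -0.59 over 13 libraries and -0.65 over the 11 at 6 h. CYP7A1 went with NR1H4 (r = 0.74 over 13 and 0.73 over 11 libraries), and its correlation with NR0B2 was weaker and negative (-0.27 over 13 and -0.43 over 11). These are descriptions across libraries that also differ in depth and in the first component. Arterial 1, control 2, portal 1 and portal 4 held the 4 lowest NR1H4 levels, 16.9 to 31.1 CPM, and the 4 highest NR0B2 levels, 87.9 to 268.6 CPM. In these 4 libraries CYP7A1 was at 0 to 0.731 CPM, against 0.151 to 6.06 CPM in the other 7 livers at 6 h. The part of whatever sets these libraries apart in the NR1H4 and NR0B2 levels was not tested.

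**Figure D2:**
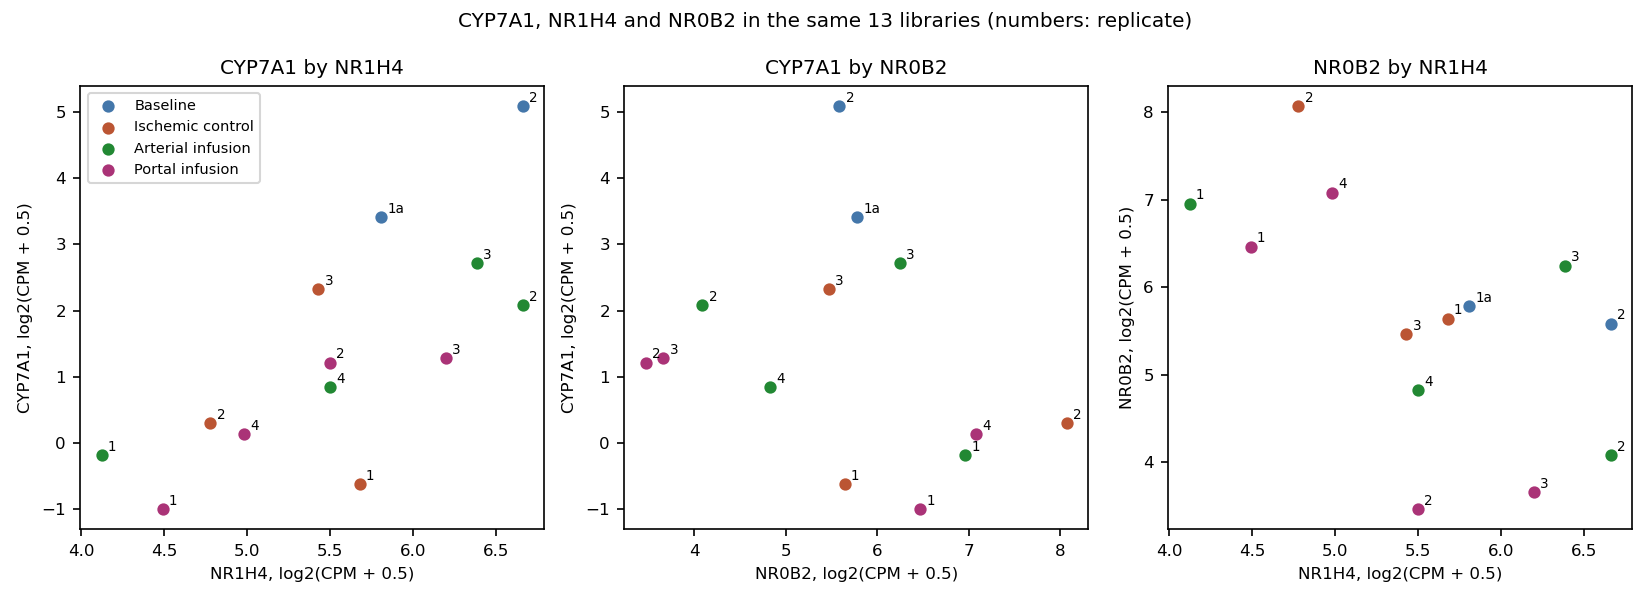
Each point is 1 of the 13 libraries, coloured by group and numbered by replicate, with log2(CPM + 0.5) of CYP7A1 against NR1H4 (left), CYP7A1 against NR0B2 (middle) and NR0B2 against NR1H4 (right). In the right panel arterial 1, control 2, portal 1 and portal 4 lie at the upper left, with the lowest NR1H4 and the highest NR0B2.

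SLC10A1 encodes NTCP, the main sodium-dependent bile acid importer of hepatocytes (ENSSSCG00000002313, chromosome 7, 93400037 to 93421989). It was at 57.7 and 52.6 CPM at baseline. Controls were at 20.7, 49.3 and 74.7 CPM, arterial livers at 17.4, 81.1, 39.4 and 43.9 CPM, and portal livers at 24.9, 44.4, 40.4 and 35.4 CPM. Below both baseline livers were 9 of 11, and control 3 and arterial 2 were above both. For SLC10A1 the log2 fold change across all livers at 6 h was -0.36 with a 95% interval from -1.39 to 0.67 (unadjusted p 0.468).

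ABCB11 encodes BSEP, the ATP-driven pump for bile salts in the canalicular membrane (ENSSSCG00000015926, chromosome 15, 75402296 to 75487092). The baseline levels were 38.6 and 56.1 CPM. Controls were at 9.49, 8.28 and 35.3 CPM, arterial livers at 26.7, 20.0, 16.0 and 20.2 CPM, and portal livers at 3.01, 25.5, 15.2 and 21.1 CPM. All 11 livers at 6 h were below both baseline livers, control 3 by the least and portal 1 by the most. The mean was 47.3 ± 12.3 CPM (SD, n = 2) at baseline and 18.3 ± 9.24 CPM (n = 11) at 6 h. The log2 fold change was -1.38 with a standard error of 0.56 and a 95% interval from -2.57 to -0.20, which is 2.61-fold lower. Its unadjusted p was 0.0253 and its adjusted p 0.860 by edgeR's quasi-likelihood test. The exact permutation test gave p = 0.0641, and leaving out 1 library gave from 0.0303 without portal 1 to 0.167 without baseline 1a.

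ABCC2 encodes MRP2, which exports conjugated bilirubin and other organic anions into bile (ENSSSCG00000010543, chromosome 14, 110955698 to 111038898). The baseline livers were at 67.8 and 38.9 CPM. Controls were at 36.4, 27.5 and 120.1 CPM, arterial livers at 68.9, 38.4, 86.1 and 79.4 CPM, and portal livers at 62.0, 74.7, 75.6 and 41.6 CPM. Above both baseline livers were 6 of 11 and below both were 3. ABCC2 had a log2 fold change of 0.27 with a 95% interval from -0.81 to 1.35, so that the groups could not be separated. The 2 canalicular pumps thus differed in where their livers at 6 h lay, although the difference between the genes was not tested.

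On the sinusoidal side, ABCC3 encodes MRP3, which returns conjugates to blood (ENSSSCG00000017561, chromosome 12, 26920764 to 26978389). The baseline livers were at 97.8 and 109.5 CPM. Controls were at 46.0, 13.3 and 25.5 CPM, arterial livers at 17.0, 39.3, 104.2 and 21.8 CPM, and portal livers at 25.3, 75.8, 80.0 and 14.2 CPM. Only arterial 3 lay between the baseline values, and the other 10 livers at 6 h were below both. The log2 fold change across all livers at 6 h was -1.38 with a standard error of 0.62 and a 95% interval from -2.70 to -0.06 (unadjusted p 0.0417, adjusted p 0.860 by edgeR's quasi-likelihood test). The exact permutation test gave p = 0.0385, with 0.0152 when arterial 3 and 0.25 when baseline 2 was left out. Without the 4 libraries apart on the first component the log2 fold change was -0.96.

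SLC51B, the β subunit of the OST transporter (ENSSSCG00000004923, chromosome 1, 163081145 to 163089491), was low. It was at 1.87 and 0.533 CPM at baseline and at 0.937, 0.487 and 1.36 CPM in controls. Arterial livers were at 5.25, 0.630, 1.04 and 0.530 CPM, and portal livers at 1.09, 2.00, 0.528 and 4.38 CPM. Arterial 1 and portal 4, both apart on the first component, held the highest values, and the groups overlapped throughout. SLC51B had a log2 fold change of 0.33 with a 95% interval from -1.83 to 2.49, and without the 4 libraries apart it was -0.24.

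**Figure D3:**
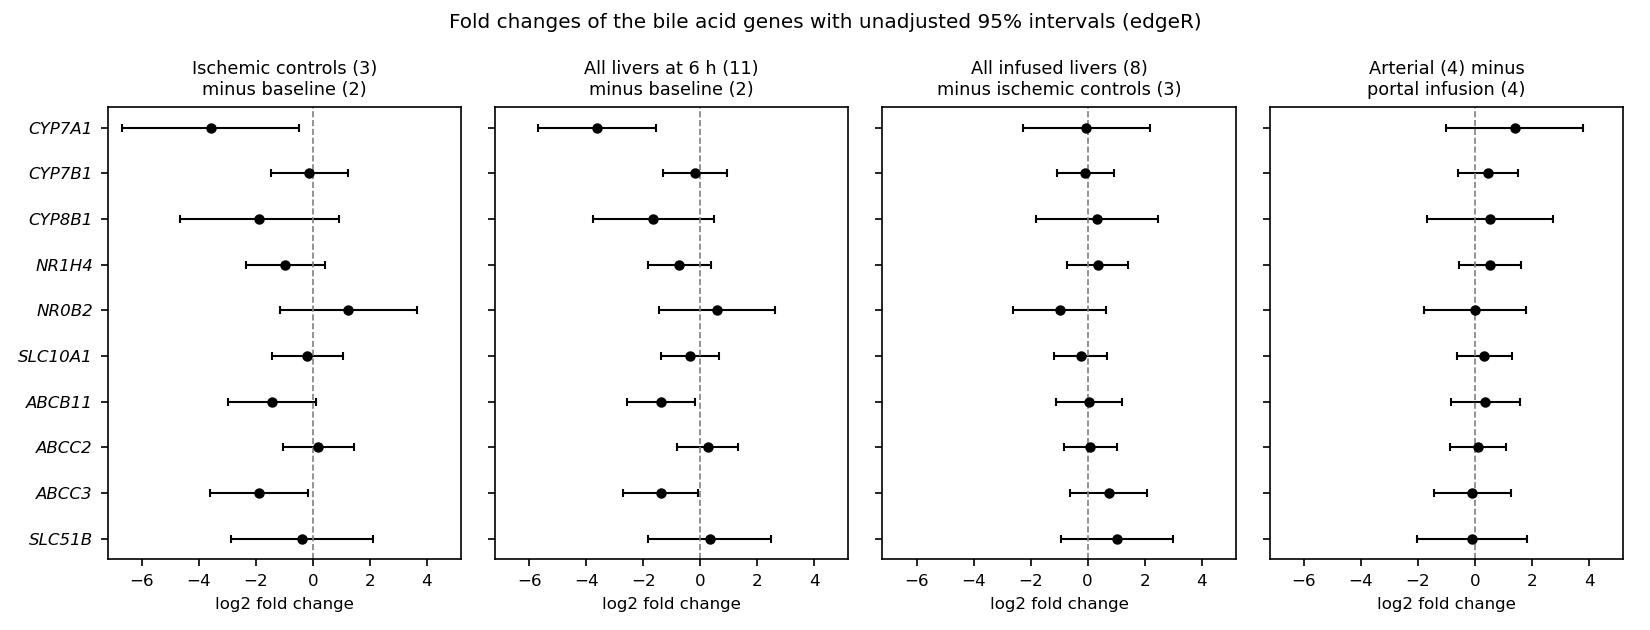
Log2 fold changes (x, points) of the 10 genes (y) with unadjusted 95% intervals (bars) from edgeR in 4 comparisons, with the number of livers in each title. The interval of CYP7A1 lies below 0 in both comparisons with baseline, from -6.70 to -0.47 in controls alone and from -5.69 to -1.54 over all livers at 6 h, and every interval in the other panels spans 0.

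When only the ischemic controls were set against baseline, the same 2 baseline livers served as reference. CYP7A1 was 12.01-fold lower (log2 fold change -3.59, standard error 1.46, unadjusted p 0.0268), and ABCC3 was 3.66-fold lower (-1.87, standard error 0.81, unadjusted p 0.0349). The size for CYP7A1 again depended on single libraries, the log2 fold change being -2.49 without baseline 2 and -5.62 without control 3. ABCB11 was at -1.42 (p 0.0687), CYP8B1 at -1.87 (p 0.174) and NR1H4 at -0.96 (p 0.158). The remaining log2 fold changes were 1.24 for NR0B2, 0.20 for ABCC2, -0.12 for CYP7B1, -0.19 for SLC10A1 and -0.37 for SLC51B. All 3 controls were below both baseline livers for CYP7A1, CYP8B1, NR1H4, ABCB11 and ABCC3, that is for 5 of 10 genes, against 15.6% of all genes. None of the 10 passed the adjusted threshold by edgeR's quasi-likelihood test (adjusted p 0.978 to 0.997). At an unadjusted p under 0.05 stood 2 of the 10 genes, against 4.37% of all genes and 1.21% that were lower. An exact permutation test of 3 against 2 livers cannot go below 0.1, and it gave 0.1 for CYP8B1 and 0.2 for CYP7A1, ABCB11 and ABCC3. In DESeq2 over these 5 libraries alone, CYP7A1 reached an adjusted p of 0.04996, just under the threshold, among 166 genes called.

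The next question was whether BM-MSC infusion moved these genes at 6 h. The 8 infused livers were not distinguishable from the 3 ischemic controls for any of the 10 genes, whose log2 fold changes ran from -0.98 for NR0B2 to 1.04 for SLC51B. None had an unadjusted p under 0.05 by edgeR's quasi-likelihood test, the lowest being 0.221 for NR0B2, against 2.14% of all genes. For CYP7A1 the infused livers had a mean of 1.98 ± 2.02 CPM (SD, n = 8) against 1.80 ± 2.38 CPM (n = 3) in controls. The log2 fold change was -0.04, and its 95% interval, from -2.27 to 2.19 was too wide to exclude a several-fold difference in either direction. For ABCB11 the log2 fold change was 0.05 with a 95% interval from -1.11 to 1.21, and for ABCC3 it was 0.74 with an interval from -0.61 to 2.08. None of the 10 genes separated the infused livers from the controls, against 0.613% of all genes. DESeq2 called 2 genes in this comparison, none of them among the 10. NR1H4 was at 0.35 (interval -0.71 to 1.41), CYP8B1 at 0.34, ABCC2 at 0.10, CYP7B1 at -0.08 and SLC10A1 at -0.25.

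Each route was also compared with the same controls. After arterial infusion 2 of the 10 genes had a log2 fold change below 0, against 49.2% of all genes. After portal infusion 5 of the 10 had one, against 51.9% of all genes. The unadjusted p values ran from 0.287 to 0.865 for the arterial and from 0.274 to 0.946 for the portal group, so none of the 10 genes was under 0.05, against 1.57% and 2.79% of all genes.

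Arterial against portal infusion asked whether the route mattered. CYP7A1 had the widest gap, with a mean of 2.87 CPM after arterial and 1.09 CPM after portal infusion and arterial 2 and arterial 3 above all 4 portal livers. The log2 fold change was 1.39 with a standard error of 1.13 and a 95% interval from -1.01 to 3.80 (unadjusted p 0.235), so the routes could not be told apart at this spread between livers. The other 9 genes lay between -0.10 for SLC51B and ABCC3 and 0.53 for CYP8B1, with unadjusted p from 0.320 to 0.989. NR1H4 was at 0.52, CYP7B1 at 0.46, ABCB11 at 0.35, SLC10A1 at 0.33, ABCC2 at 0.10 and NR0B2 at -0.01. None of the 10 had an unadjusted p under 0.05, against 2.4% of all genes, and DESeq2 called 1 gene, not among the 10.

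Ordered by mean level, 6 of the 10 genes were highest in the baseline group. Between neighbouring groups in these orders there were 30 steps. The gap was larger than the larger of both SDs in 4 of them, each the step from baseline to the next group, for CYP7A1, CYP8B1, ABCB11 and ABCC3. In 3 of these the ranges did not overlap (CYP7A1, ABCB11 and ABCC3). For ABCC3 the next group was portal, while arterial 3 lay between the baseline values. The next group was set by the mean of each gene, and these steps were not counted over all genes. None of the 18 steps among the groups at 6 h exceeded the SD, so no order among controls, arterial and portal livers can be read from these means.

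**Figure D4:**
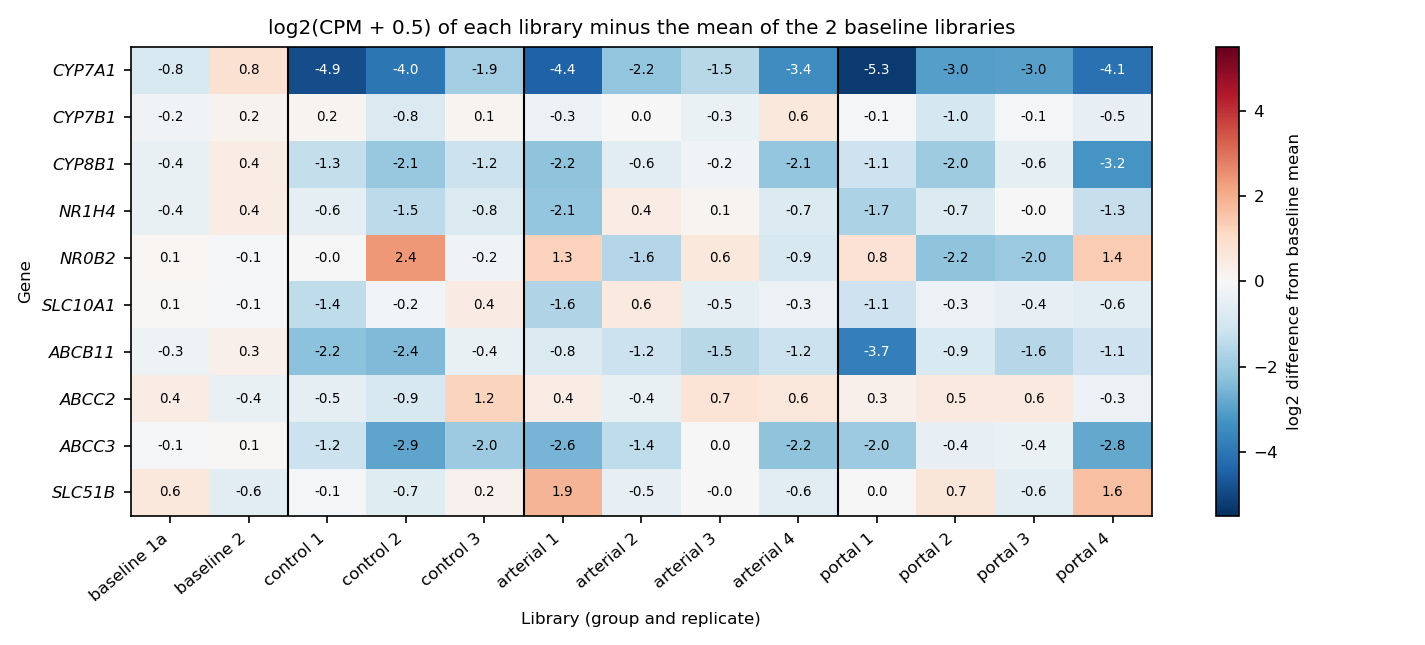
Log2(CPM + 0.5) of each gene (rows) in each library (columns) minus the mean of the 2 baseline libraries, with the value printed in each cell. CYP7A1, CYP8B1 and ABCB11 are below 0 in all 11 livers at 6 h. NR0B2 is above 0 in control 2, arterial 1, arterial 3, portal 1 and portal 4 and below 0 in the other livers at 6 h.

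The 10 genes did not move as a block across libraries. Over 13 libraries, Pearson's r with CYP7A1 was 0.75 for ABCB11, 0.74 for NR1H4, 0.71 for CYP8B1, 0.68 for ABCC3 and 0.67 for SLC10A1, but 0.18 for CYP7B1, 0.14 for ABCC2, -0.27 for NR0B2 and -0.28 for SLC51B. Among the 11 livers at 6 h the r of ABCB11 with CYP7A1 was 0.60, that of SLC10A1 0.76 and that of ABCC3 0.50. CYP8B1 went with ABCC3 (r = 0.80) and not with ABCB11 (r = 0.21). With the first component the r was -0.87 for NR1H4, -0.80 for ABCC3, -0.69 for CYP7A1 and 0.67 for NR0B2, and it was weaker for CYP7B1 (-0.25) and ABCC2 (-0.17). These libraries share depth differences, and the r of ABCC3 with the total count was 0.59.

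Levels were also expressed per 1000000 hepatocyte marker reads. On this scale CYP7A1 was at 117 and 222 in the baseline livers and between 0 and 46.7 at 6 h, and CYP7A1, CYP8B1 and ABCB11 were below both baseline livers in all 11 livers. ABCC3 and NR1H4 were below both in 10 of 11. The share of all genes on this scale was not computed, so these counts have no background to be set against. The marker sum itself was uneven in make-up. APOC3 was at 21988 to 33285 CPM in the 4 libraries apart on the first component and at 3464 to 6524 CPM in the other 7 at 6 h, whereas TF was at 739 to 2390 CPM in those 4 and at 4244 to 9332 CPM in the other 7. Against both baseline livers, TF was lower in all 11 livers at 6 h, AHSG in 10, SERPINC1 in 8, FGB in 6, ALB in 4 and TTR in 1, while APOC3 was higher in all 11, APOA1 in 10, TTR in 5, FGB in 3 and AHSG in 1. The 4 neutrophil markers tested (of 8 listed) summed to 23.7 and 26.2 CPM at baseline, 42.1 to 398.4 CPM in controls, 19.2 to 284.1 CPM in the arterial and 21.4 to 106.9 CPM in the portal group, with ELANE at 0 in portal 1 and portal 4. Without the 4 libraries apart, the log2 fold change of CYP7A1 at 6 h was -3.11 and that of ABCB11 -1.22.

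Marker sums of other cell types also differed between libraries. The 7 Kupffer cell and macrophage markers summed to 544 and 914 CPM at baseline, 984 to 1448 CPM in controls, 604 to 801 CPM in the arterial and 539 to 812 CPM in the portal group, with TIMD4 at 0 in portal 1. In controls the means of C1QA, C1QB, CD68 and MARCO were higher than at baseline, and those of CD163, VSIG4 and TIMD4 were lower. The 6 markers of sinusoidal and vascular endothelium summed to 396 and 473 CPM at baseline and 189 to 621 CPM at 6 h, below both baseline livers in 10 of 11. Singly, CLEC4G was below both in 10, PECAM1 and KDR in 9, LYVE1 and CDH5 in 7 and VWF in 1. Above both were CDH5 in 3, LYVE1 and KDR in 2, PECAM1 and CLEC4G in 1 and VWF in 0. The 8 lymphocyte markers summed to 18.4 and 21.3 CPM at baseline and 14.4 to 86.3 CPM at 6 h, above both in 10 of 11, with IL7R at 0 in the 4 libraries apart and CD2 at 0 in portal 1. Singly, GZMB was above both in 11, CD3D and NKG7 in 10, CD3E and CD79A in 9, MS4A1 in 8, CD2 in 5 and IL7R in 2. Below both were CD2 in 5, IL7R in 4, MS4A1 in 3, CD79A in 2, CD3E and CD3D in 1 and GZMB and NKG7 in 0. Sums of the 8 stellate cell and fibroblast markers were 526 and 731 CPM at baseline and 129 to 1246 CPM at 6 h, below both in 7 and above both in 3 of 11, with LUM at 0 in arterial 1 and portal 1 and RGS5 at 0 in portal 1. For the 7 cholangiocyte markers the sums were 27.6 and 40.1 CPM at baseline and 24.4 to 245 CPM at 6 h, below both in 2 and above both in 4, with EPCAM and CFTR at 0 in portal 1. SPP1 alone reached 207 CPM, and was above both baseline livers in 5 and below both in 1. CFTR was above both in 1 and below both in 6. KRT19 was above both in 8 and below both in 1, and EPCAM in 6 and 3. SOX9 was above both in 4 and below both in 5, AQP1 in 2 and 4, and KRT7 in 3 and 0. The neutrophil sum was above both baseline livers in 9 of 11. S100A8 was above both in 9 and below both in 2, and S100A12 in 10 and 1. CSF3R was above both in 5 and below both in 5, and ELANE in 3 and 4. Each sum is weighted toward its most abundant members. The part of these cell types in the levels of the bile acid genes was not tested.

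Outside the 10 genes, 41 other genes of bile acid synthesis, conjugation, regulation, uptake and export were listed, of which 35 had a row under their symbol and 31 were tested. Across all livers at 6 h 15 were lower and 16 higher than at baseline, where 50.5% of all genes were lower, with a median log2 fold change of 0.11 against -0.01 over all genes. None passed the adjusted threshold by edgeR's quasi-likelihood test, and at an unadjusted p under 0.05 were 3 lower genes and 1 higher gene of the 31, against 4.78% of all genes and 1.93% that were lower. SLCO1A2, an organic anion and bile salt importer, was at 26.0 and 44.0 CPM at baseline and at 3.76 to 26.3 CPM at 6 h, with 10 of 11 livers below both (-1.36, p 0.0193). ACOX2, the peroxisomal oxidase that shortens the side chain of bile acid precursors, was at 122 and 174 CPM at baseline and at 29.8 to 117 CPM at 6 h, below both in all 11 livers (-1.03, p 0.0238). Below both in all 11 livers were 2 of the 31 genes, against 3.8% of all genes.

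AKR1D1, the steroid 5β-reductase of the synthesis pathway, was at 308 and 532 CPM at baseline and at 58.3 to 314 CPM at 6 h, with 10 of 11 livers below both (-1.22, p 0.0308). RXRA, the dimer partner of FXR, was at 42.2 and 73.5 CPM at baseline and at 54.5 to 285 CPM at 6 h, with 10 of 11 above both (1.48, p 0.0366). In the 4 libraries apart on the first component RXRA was at 197 to 285 CPM, against 54.5 to 172 CPM in the other 7 at 6 h. In the same sets AKR1D1 was at 58.3 to 186 against 161 to 314 CPM. SLCO1A2 was at 3.76 to 9.32 against 10.2 to 26.3 CPM there, and ACOX2 at 29.8 to 80.2 against 57.6 to 117 CPM. In the ischemic controls alone, SLCO1A2 (-1.45), NR1I2 (-1.03) and RXRA (1.56) had an unadjusted p under 0.05, that is 3 of 31 genes against 4.37% of all genes. NR1I2 encodes the xenobiotic receptor PXR. It was at 20.1 and 23.2 CPM at baseline, at 6.17, 12.2 and 13.5 CPM in the controls and at 10.5 to 26.7 CPM in the 8 infused livers. In infused against control livers it had a log2 fold change of 0.87 (unadjusted p 0.0305, adjusted p 1.00), the 1 gene of these 31 with such a p, a share near the 2.14% of all genes. By role, the genes lower at 6 h were 6 of 10 for synthesis, 2 of 2 for uptake, 5 of 12 for regulation, 0 of 2 for conjugation and 2 of 5 for export. Of all genes 50.5% were lower, and lists this short cannot show a difference between roles.

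**Figure D5:**
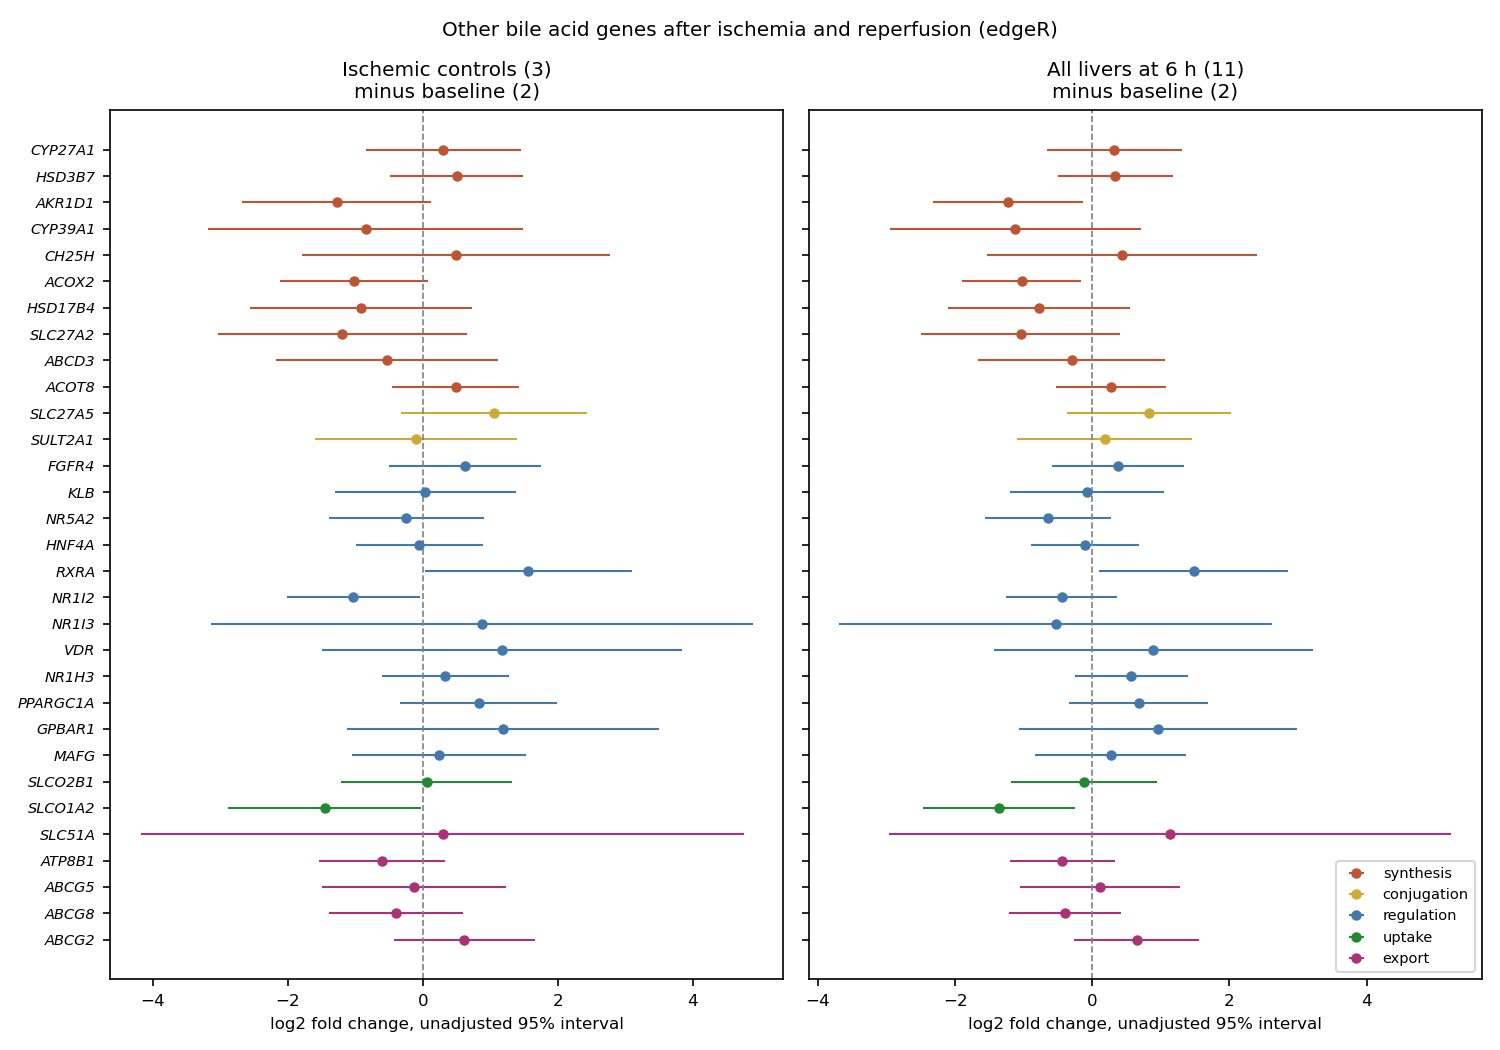
Log2 fold changes (x, points) with unadjusted 95% intervals (bars) of the 31 other bile acid genes tested (y), coloured by role, in ischemic controls against baseline (left) and in all livers at 6 h against baseline (right). In the right panel the intervals of AKR1D1, ACOX2 and SLCO1A2 lie below 0 and that of RXRA lies above 0.

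By Pearson's r of log2(CPM + 0.5) over the 13 libraries, the genes most like CYP7A1 were ENSSSCG00000027903 (0.97), BTD (0.93), ENSSSCG00000043909 (0.92), SLCO1A2 (0.91) and CAT (0.91). Over the 11 livers at 6 h alone, their r was 0.94, 0.86, 0.83, 0.87 and 0.90. ENSSSCG00000043909 was near the floor, at 1.01 and 1.18 CPM at baseline and at 0 to 0.398 CPM at 6 h. Its r therefore leans on the 0.5 CPM added before the log. BTD, encoding biotinidase, was at 44.5 and 61.4 CPM at baseline and at 17.5 to 38.1 CPM at 6 h. CAT, encoding catalase, was at 715 and 1400 CPM at baseline and at 89.2 to 849 CPM at 6 h. Among the other 9 bile acid genes the closest to CYP7A1 was ABCB11, which ranked 286 of 16480 genes by this measure, followed by NR1H4 at 330.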

How the data were processed

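RNA of 13 pig liver biopsies was sequenced as non-directional poly(A) libraries. The authors deposited raw counts, which they obtained by aligning reads with HISAT2 to Sscrofa11.1, the pig assembly, and assigning them to Ensembl genes with FeatureCounts. They applied no normalization to these counts. The RNA kit is given as miRNeasy in the labels and as NucleoSpin in the methods. Strand was not kept, so reads of overlapping antisense genes cannot be told apart.

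Groups and replicate numbers come from the labels, and 0 columns were left without a sample. The main test was the quasi-likelihood test of edgeR 4.0.16 under R 4.3.3, with all 4 groups in 1 fit, TMM scaling and the filterByExpr filter, which left 16481 genes. P-values were adjusted over these genes after Benjamini-Hochberg at a threshold of 0.05. Intervals are at 95% and unadjusted. DESeq2 1.42.0 was an alternative. Single genes were compared by two-sided exact permutation tests of mean log2(CPM + 0.5). CPM is the count per 1000000 of TMM-scaled library size, a count of 0 allows up to 3 reads, and such limits cover counting error only. The labels do not name the animals, so p-values measure the spread between these libraries. The edgeR fold change comparisons were first checked on simulated counts, and the permutation test on a small example with a known answer. The test among the 4 groups and DESeq2 were not checked in this way.

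The 10 genes, the other bile acid genes and the marker lists were chosen with earlier results of these data known. Named in the text are the 10 genes, the other bile acid genes with an unadjusted p under 0.05 against baseline or an adjusted call, and the 5 genes most correlated with CYP7A1. Single cell type markers were singled out after their values were seen. Positions are those of RefSeq for Sscrofa11.1, matched by symbol for 9 of the 10 genes. Genes of the lists without a row under their symbol (AMACR, SCP2, SLCO1B3, ABCC4, ABCB4, ABCB1) were not analysed here. Alternatives were RLE or upper quartile scaling, no filter or at least 10 counts in every library, a replicate block, DESeq2, only the groups compared, and each library left out. Libraries thinned to the smallest total, and the 4 libraries apart left out, were chosen after seeing the data. Replicates of a group differed by a chi-square of at least 60.3 per gene, so none was a copy of another.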

Additional observations from a re-analysis of the deposited data

Results flagged for a closer look

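SLC51B in arterial 1 was at 5.25 CPM, far from the other 3 arterial livers at 0.530 to 1.04 CPM. The gap took 0.892 of the range of the group, above the 95% critical value of Dixon's test for 4 samples. In all, 20 groups of 4 livers were examined in this way, and 1 stood out, where chance gives about 1 in 20.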

How the results depend on the processing

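Of 40 log2 fold changes of the 10 genes in controls against baseline, all livers at 6 h against baseline, infused against control livers and arterial against portal infusion, 16 kept their sign in every alternative. They included CYP7A1, CYP8B1, ABCB11 and ABCC3 in both comparisons with baseline. The main test called 0 genes in every comparison, and so did RLE and upper quartile scaling, at least 10 counts in every library, thinned libraries, each of 13 libraries left out and the replicate block. Without the filter on low counts 30 genes were called in controls against baseline, 28 at 6 h against baseline, 19 in infused and 11 in arterial livers against controls, 14 in portal livers against controls, 5 between the routes and 95 among the 4 groups, CYP7A1 among the 28 (adjusted p 0.000731, against 0.212 to 0.848 in its other alternatives apart from single libraries left out) and among the 95. DESeq2 called, in the same order, 6, 16, 2, 1, 3, 1 and 9 genes, and over only the groups compared 166 in controls against baseline and 2 each in infused and portal livers against controls. Without the 4 libraries apart 1 gene each was called in infused and in arterial livers against controls and among the 4 groups. The cause of these shifts was not tested. A minimum of 10 counts in every library removed CYP7A1, CYP8B1 and SLC51B, and the fit over only the groups compared was not run where all libraries enter. Low counts limit CYP7A1, CYP8B1 and SLC51B most.

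Same-numbered libraries had a median r of -0.024 over 16 pairs, over 0.1 in 6. Pairs with different numbers had a median of -0.016 over 46 pairs, over 0.1 in 17. The 2 baseline libraries mirror each other once their group mean is taken out, so this check cannot decide whether libraries share a pig. With the replicate block CYP7A1 was at -5.51 in controls and -5.23 at 6 h against baseline, and signs turned for ABCC2 (-0.32 in controls, -0.058 at 6 h) and SLC51B (0.10 in controls) against baseline, CYP7A1 in infused against control livers (0.43) and NR0B2 between the routes (0.54). Without the 4 libraries apart signs turned in controls against baseline for CYP7B1 (0.14) and NR0B2 (-0.15), at 6 h against baseline for NR0B2 (-0.89) and SLC51B (-0.24), in infused against control livers for CYP7A1 (0.18), SLC10A1 (0.036), ABCB11 (-0.18), ABCC2 (-0.12) and SLC51B (-0.23), and between the routes for NR0B2 (1.83), ABCB11 (-0.10) and ABCC2 (-0.13).

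Leaving out 1 library turned the sign of these fold changes. In controls against baseline the range was -0.33 to 0.16 for CYP7B1, -0.13 (without control 2) to 1.70 for NR0B2, -0.61 to 0.19 for SLC10A1, -0.72 to 0.65 for ABCC2 and -0.999 to 0.79 for SLC51B. At 6 h against baseline it was -0.39 to 0.061 for CYP7B1, -0.077 to 0.72 for ABCC2 and -0.30 to 1.496 for SLC51B, the negative ABCC2 and SLC51B values without baseline 2. In infused against control livers it was -0.58 to 2.00 (without control 3) for CYP7A1, -0.35 to 0.071 for CYP7B1, -0.0051 to 0.58 for CYP8B1, -1.44 to 0.41 (without control 2) for NR0B2, -0.63 to 0.17 for SLC10A1, -0.30 to 1.02 for ABCB11 and -0.26 to 1.01 for ABCC2. Between the routes it was -0.034 to 1.23 for CYP8B1, -0.64 to 0.72 for NR0B2, -0.10 to 0.60 for SLC10A1, -0.054 to 0.31 for ABCC2, -0.91 to 0.25 for ABCC3 and -1.45 to 0.63 for SLC51B.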

Other observations

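SLC51A, the α subunit that pairs with SLC51B, was at 0 to 1.19 CPM in all 13 libraries, with 0 reads in control 2, arterial 1 and portal 1. Arterial 1 thus had the highest SLC51B level, 5.25 CPM, and no SLC51A read, which allows up to 3 reads. SLC27A2, a very long-chain acyl-CoA synthetase that acts on bile acid precursors, was at 32.1 and 36.8 CPM at baseline and at 2.84 to 31.4 CPM at 6 h, below both baseline livers in all 11 livers. Its log2 fold change was -1.05 with an unadjusted p of 0.146 by edgeR's quasi-likelihood test, so that a complete separation from baseline went with a p over 0.05. Such a separation below baseline was found for 2 of the 31 other bile acid genes tested, ACOX2 and SLC27A2, against 3.8% of all genes. SLC51A and SLC27A2 were singled out after their values were seen.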
